A study of Mus musculus with 6 samples.

Results

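The class I antigen presentation pathway was followed in RNA sequencing libraries of mouse splenic dendritic cells through 10 genes: the classical class I heavy chains H2-K1 and H2-D1, their light chain B2m, the peptide transporter chains Tap1 and Tap2, the tapasin gene Tapbp, the immunoproteasome subunits Psmb8, Psmb9 and Psmb10, and the transactivator Nlrc5. The genes were chosen by symbol, all 10 were found among the 23420 gene symbols of each count file, and all 10 passed the filter on low counts that left 14388 genes. The study compared 3 libraries labelled TBK1-DKO with 3 labelled wild type (WT), all from the spleen of C57BL/6 mice and described as freshly isolated dendritic cells. The mice were 8 weeks old according to the protocol text and 10 weeks old according to the sample characteristics, and which age holds is not known. The abbreviation DKO, the alleles behind it, the cells in which Tbk1 was targeted, the purification of the cells and whether each library came from its own animal are not stated in the labels; the spread behind each p-value is therefore that of 3 libraries a group, and it may be technical. TBK1 is a kinase that links sensors of nucleic acids to interferon regulatory factors.

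Class I molecules display peptides from inside the cell to CD8 T cells. The proteasome cuts proteins into peptides, the TAP transporter made of TAP1 and TAP2 carries them into the endoplasmic reticulum, and tapasin holds empty class I molecules near the transporter until a peptide is bound. In cells exposed to interferons, and constitutively in dendritic cells, the inducible subunits encoded by Psmb8 (LMP7), Psmb9 (LMP2) and Psmb10 (MECL-1) take the place of the standard catalytic subunits encoded by Psmb5, Psmb6 and Psmb7. NLRC5 is a NOD-like receptor family protein that acts with the RFX, CREB/ATF and NF-Y factors at class I promoters.

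The promoter sequences of the class I chains and of Tap1 are shown because these genes are known to share regulators, while their levels below did not all move alike. They are RefSeq windows of the GRCm38.p6 build, from 250 bases before the start site to 50 bases from it onwards, and 8 of the 10 genes had at least 1. H2-K1 had 2 windows with nearby start sites, of which the first is printed. Tap2 and Nlrc5 had none in the table used. Each is written 5′ to 3′ on the strand of the gene. Capitals mark matches, on either strand, of 4 motifs: AANNGAAA, the core of elements bound by interferon regulatory factors; TGACG, the core of sites of the CREB/ATF family; CCAAT, the box bound by NF-Y; and GGGGATTCC, the core of sites of NF-kB. The windows lie at chr17:34000298-34000597 on the minus strand for H2-K1, chr17:35262844-35263143 on the plus strand for H2-D1, chr2:122147437-122147736 on the plus strand for B2m and chr17:34187306-34187605 on the plus strand for Tap1.
H2-K1: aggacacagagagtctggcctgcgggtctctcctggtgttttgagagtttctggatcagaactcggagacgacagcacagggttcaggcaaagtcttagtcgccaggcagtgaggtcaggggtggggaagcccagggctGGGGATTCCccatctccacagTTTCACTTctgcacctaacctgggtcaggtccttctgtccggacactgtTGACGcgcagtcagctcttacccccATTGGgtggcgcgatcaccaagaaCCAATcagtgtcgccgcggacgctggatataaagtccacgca
H2-D1: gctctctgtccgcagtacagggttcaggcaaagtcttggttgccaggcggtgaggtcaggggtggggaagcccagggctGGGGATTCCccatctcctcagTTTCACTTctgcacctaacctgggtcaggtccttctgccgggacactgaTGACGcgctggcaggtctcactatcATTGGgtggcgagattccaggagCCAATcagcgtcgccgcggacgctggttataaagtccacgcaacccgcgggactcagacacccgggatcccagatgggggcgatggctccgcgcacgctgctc
B2m: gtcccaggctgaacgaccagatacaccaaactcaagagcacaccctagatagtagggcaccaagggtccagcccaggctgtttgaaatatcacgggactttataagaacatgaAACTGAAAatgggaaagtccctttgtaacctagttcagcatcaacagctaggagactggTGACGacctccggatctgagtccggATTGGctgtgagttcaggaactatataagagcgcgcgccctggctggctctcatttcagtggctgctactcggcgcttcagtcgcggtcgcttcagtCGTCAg
Tap1: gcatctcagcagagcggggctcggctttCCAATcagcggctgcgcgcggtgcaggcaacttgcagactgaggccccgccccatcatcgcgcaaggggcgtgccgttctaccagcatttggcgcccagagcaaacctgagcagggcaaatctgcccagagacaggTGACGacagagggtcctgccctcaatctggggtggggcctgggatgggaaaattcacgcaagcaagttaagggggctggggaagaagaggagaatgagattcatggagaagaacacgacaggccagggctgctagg

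The H2-K1 and H2-D1 windows each held 1 match of AANNGAAA, 1 of TGACG, 2 of CCAAT and 1 of GGGGATTCC. These stood in the same order in both, with the GGGGATTCC match beginning at base -111 relative to the start site in H2-K1 (-125 from its other start site) and at base -171 in H2-D1. B2m held 1 match of AANNGAAA, 2 of TGACG and 1 of CCAAT, and none of GGGGATTCC. Tap1 held 1 match of TGACG and 1 of CCAAT. Psmb9 lies head to head with Tap1: its RefSeq start site is 226 bases away on the opposite strand. Of its window, 275 bases are those of Tap1 read from the other side. Gene positions given below are those of GENCODE and can differ from RefSeq start sites. In GENCODE, exons of Psmb9 and Tap1 overlap by 212 bases. Tapbp held 2 CCAAT matches, and the windows of Psmb8 and Psmb10 held none of the 4 motifs. Of 32851 RefSeq windows of this length, 23.9% held AANNGAAA, 20.8% TGACG, 37.4% CCAAT and 0.25% GGGGATTCC, and 1.59% held the first 3 together, as H2-K1, H2-D1 and B2m did. No match overlapped another in the printed windows. A match describes the letters only.

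Library depth ran from 31077585 to 36145508 reads in genes in WT and from 45018389 to 47349648 in TBK1-DKO. Values of a group are given below in the order of replicates 1, 2 and 3, as reads of a gene per 1000000 scaled reads (CPM). No pair of libraries agreed within sampling noise, and libraries TBK1-DKO 2 and WT 1 stood apart from the others of their groups: chi-square per degree of freedom over genes was 38.3 for TBK1-DKO 2 against either of the others, with 2.47 between TBK1-DKO 1 and 3, and 14.6 for WT 1 against WT 3, with 2.63 between WT 2 and 3. Deviations of TBK1-DKO 2 from its group fell with transcript length (Spearman rho -0.57 across genes), and those of WT 1 fell with GC content (rho -0.52). Tbk1 itself stood at 82.3 ± 2.69 CPM in TBK1-DKO and 85.0 ± 5.08 CPM in WT (SD, n = 3) and was not called. Reads summed over all its exons do not reveal a partial deletion, so the labels were not checked by it. Of the 6 pan dendritic markers, Itgax ran from 333 to 410 CPM and Zbtb46 from 27.2 to 37.7 CPM over the 6 libraries. The list summed to 11609 to 13430 CPM, most of it from 3 genes of class II presentation that B cells express too.

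Of the 10 class I genes, Tap1 and Nlrc5 rose in TBK1-DKO, none fell and 8 were not called (quasi-likelihood test of edgeR; called means a p under 0.05 after Benjamini-Hochberg adjustment across the 14388 genes). Among all genes tested, 13.7% were called higher and 9.90% lower, 23.6% in all, so 2 of 10 is near the background and says nothing particular about the class I genes. The median log2 fold change of the 10 was 0.057, against 0.0015 over all genes tested. In 2 of the 10 genes, again Tap1 and Nlrc5, the groups did not overlap, where 41.1% of all genes tested had groups that did not, 21.5% with TBK1-DKO higher. Summed over the 10 genes, the level was 6191 to 6899 CPM in TBK1-DKO and 5704 to 6344 CPM in WT, ranges that overlapped. In the plot of levels by library, the points of the 2 groups interleave for 8 genes and separate for Tap1 and Nlrc5.

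**Figure D1:**
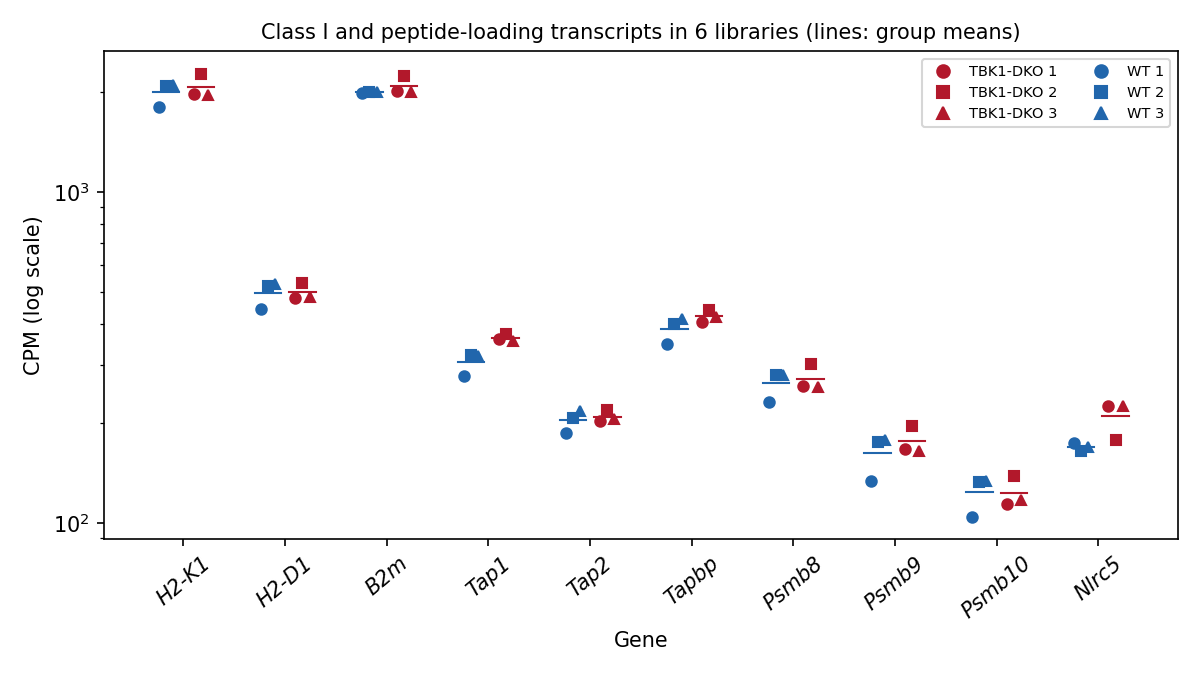
CPM (log axis) of the 10 genes in each of the 6 libraries, red for TBK1-DKO and blue for WT, with symbols for the replicate number and horizontal lines at the group means. H2-K1 and B2m lie between 1809 and 2278 CPM in both groups, and only for Tap1 and Nlrc5 do all TBK1-DKO points lie above all WT points.

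Nlrc5 (ENSMUSG00000074151.13) was the transactivator among the 10. The gene lies on chromosome 8, 94434356 to 94527272, on the plus strand. Its level was 226, 178 and 225 CPM with the TBK1-DKO label, beside 175, 165 and 169 CPM with the WT label. TBK1-DKO 1 and 3 were high and close together, while TBK1-DKO 2 lay just above WT 1, the highest WT library. Group means of 210 ± 27.1 against 170 ± 5.04 CPM (SD, n = 3) gave a 1.24-fold difference or 0.30 on the log2 scale, with an SE of 0.088, a 95% interval from 0.11 to 0.50 and an adjusted p of 0.031 by edgeR. Without TBK1-DKO 1 or 3, or without any 1 of the WT libraries, Nlrc5 was no longer called (adjusted p of 0.058 to 0.13 by edgeR), and without TBK1-DKO 2 the log2 fold change was 0.39. Nlrc5 has the longest transcript of the 10, at 7578 bases against 860 to 3442 for the others, and TBK1-DKO 2, where Nlrc5 was low, is the library whose deviations fell with transcript length; the part of that trend in the Nlrc5 value was not tested. With per-library trends of transcript length and GC content taken out, the log2 fold change was 0.28 (SE 0.037).

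Tap1 (ENSMUSG00000037321.17), 1 of the 2 chains of the peptide transporter, lies on chromosome 17, 34187553 to 34197225, on the plus strand. The TBK1-DKO libraries held 359, 372 and 355 CPM, the WT libraries 278, 321 and 318 CPM. All 3 TBK1-DKO libraries lay above all 3 WT libraries, and WT 1 was the lowest. Tap1 averaged 362 ± 9.05 against 306 ± 23.7 CPM (SD, n = 3), which is a 1.18-fold difference or 0.24 on the log2 scale, with an SE of 0.068, a 95% interval from 0.093 to 0.39 and an adjusted p of 0.026 by edgeR. As with Nlrc5, only the omission of TBK1-DKO 2 left the call in place, and omitting any other library gave an adjusted p of 0.055 to 0.071 by edgeR. The log2 fold change was 0.18 without WT 1, 0.16 with length and GC trends taken out and 0.15 in TBK1-DKO 1 and 3 against WT 2 and 3, against 0.24 with all libraries.

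Tap2 (ENSMUSG00000024339.12), the other chain of the transporter, lies near Tap1 on the same strand at 34203527 to 34216321, with Psmb8 between them. Its 203, 220 and 206 CPM under the TBK1-DKO label overlapped the 187, 207 and 218 CPM under the WT label. The log2 fold change of 0.040 (95% interval -0.11 to 0.19, SE 0.069) was not called. Within each library the reads of Tap1 were 1.77, 1.69 and 1.72 times those of Tap2 in TBK1-DKO 1, 2 and 3 and 1.49, 1.55 and 1.46 times in WT 1, 2 and 3. This ratio does not depend on library scaling, and it was higher in all 3 TBK1-DKO libraries than in any WT library. The difference was 0.20 on the log2 scale (two-sided exact permutation test, p = 0.1, the smallest that 3 against 3 libraries allow; 0.35 adjusted over 7 gene pairs), and it lay between 0.19 and 0.23 when each library was left out in turn.

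Tapbp (ENSMUSG00000024308.15), which encodes tapasin, lies on chromosome 17 at 33915899 to 33929292 on the plus strand. Tapbp reached 405, 439 and 418 CPM in the TBK1-DKO libraries, and the WT libraries had 346, 399 and 414 CPM. TBK1-DKO 1 lay below WT 3, so the groups overlapped. The log2 fold change of 0.12 (95% interval -0.044 to 0.29, SE 0.075) was not called.

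The heavy chains were among the most abundant transcripts. H2-K1 (ENSMUSG00000061232.16), on chromosome 17 at 33996017 to 34000347 on the minus strand, ranked 19 of the 14388 genes by mean CPM. The TBK1-DKO values were 1979, 2278 and 1968 CPM and the WT values 1809, 2091 and 2104 CPM. TBK1-DKO 1 and 3 lay between WT 1 and the other 2 WT libraries. The log2 fold change of 0.052 (95% interval -0.14 to 0.25, SE 0.087) was not called. H2-D1 (ENSMUSG00000073411.11), at 35262730 to 35267499 on the plus strand, had TBK1-DKO values of 479, 531 and 481 CPM and WT values of 442, 521 and 527 CPM, which overlapped. Its log2 fold change was 0.0019 (95% interval -0.18 to 0.18, SE 0.080) and was not called. Reads of H2-K1 were 4.17 ± 0.11 times those of H2-D1 in TBK1-DKO and 4.03 ± 0.051 times in WT (SD, n = 3), a difference of 0.047 on the log2 scale (exact permutation test, p = 0.2).

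B2m (ENSMUSG00000060802.8), the light chain shared by all class I molecules, lies on chromosome 2 at 122147686 to 122153083 on the plus strand and ranked 18 by mean CPM. Levels of 2025, 2245 and 1998 CPM in the TBK1-DKO libraries compared with 1997, 2003 and 2002 CPM in the WT libraries. The 3 WT libraries and TBK1-DKO 1 and 3 lay within a narrow band, and TBK1-DKO 2 lay above it. The log2 fold change of 0.063 (95% interval -0.091 to 0.22, SE 0.069) was not called. With length and GC trends taken out it was 0.10 and called (adjusted p = 0.047, edgeR), and in TBK1-DKO 1 and 3 against WT 2 and 3 it was -0.0056.

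The 3 immunoproteasome genes were not called. Psmb8 (ENSMUSG00000024338.15; chromosome 17, 34197721 to 34201454, plus strand) had TBK1-DKO values of 259, 301 and 258 CPM and WT values of 232, 279 and 280 CPM (log2 fold change 0.047, 95% interval -0.15 to 0.25). Psmb9 (ENSMUSG00000096727.3; chromosome 17, 34181987 to 34187764, minus strand) had TBK1-DKO values of 167, 195 and 165 CPM and WT values of 133, 175 and 178 CPM (log2 fold change 0.12, 95% interval -0.13 to 0.36). Psmb10 (ENSMUSG00000031897.9; chromosome 8, 105935735 to 105938444, minus strand) had TBK1-DKO values of 114, 139 and 117 CPM and WT values of 104, 133 and 134 CPM (log2 fold change -0.0048, 95% interval -0.24 to 0.23). In each of these genes WT 1 was the lowest library of the 6, TBK1-DKO 2 the highest and the other 4 between them.

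Each immunoproteasome subunit was set against the standard subunit it replaces, per base of transcript, in each library. Psmb8 over Psmb5 was 2.99 in TBK1-DKO and 3.03 in WT, Psmb9 over Psmb6 1.22 in both groups, and Psmb10 over Psmb7 1.04 and 1.14, as means of 3 libraries. The groups overlapped for all 3 pairs. The differences were -0.016, 0.00036 and -0.12 on the log2 scale, with exact permutation p of 0.9, 1 and 0.4, where 3 against 3 libraries cannot go below 0.1, so these p-values cannot show whether the ratios differ. For Psmb10 over Psmb7, WT 1 stood apart, with a read ratio of 1.05 beside 1.41 in WT 2 and in WT 3, and the difference was -0.26 without WT 1 and -0.28 without both WT 1 and TBK1-DKO 2. The levels of the standard subunits were 50.3 ± 5.38 against 48.5 ± 8.30 CPM for Psmb5, 85.4 ± 8.45 against 78.1 ± 5.82 CPM for Psmb6 and 105 ± 9.45 against 96.1 ± 2.51 CPM for Psmb7, in TBK1-DKO against WT (SD, n = 3), and none was called. Psmb9 over its head-to-head neighbour Tap1 was 0.49 ± 0.034 in reads in TBK1-DKO and 0.53 ± 0.043 in WT (SD, n = 3; difference -0.12 on the log2 scale, exact permutation p = 0.2), with overlapping groups.

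**Figure D2:**
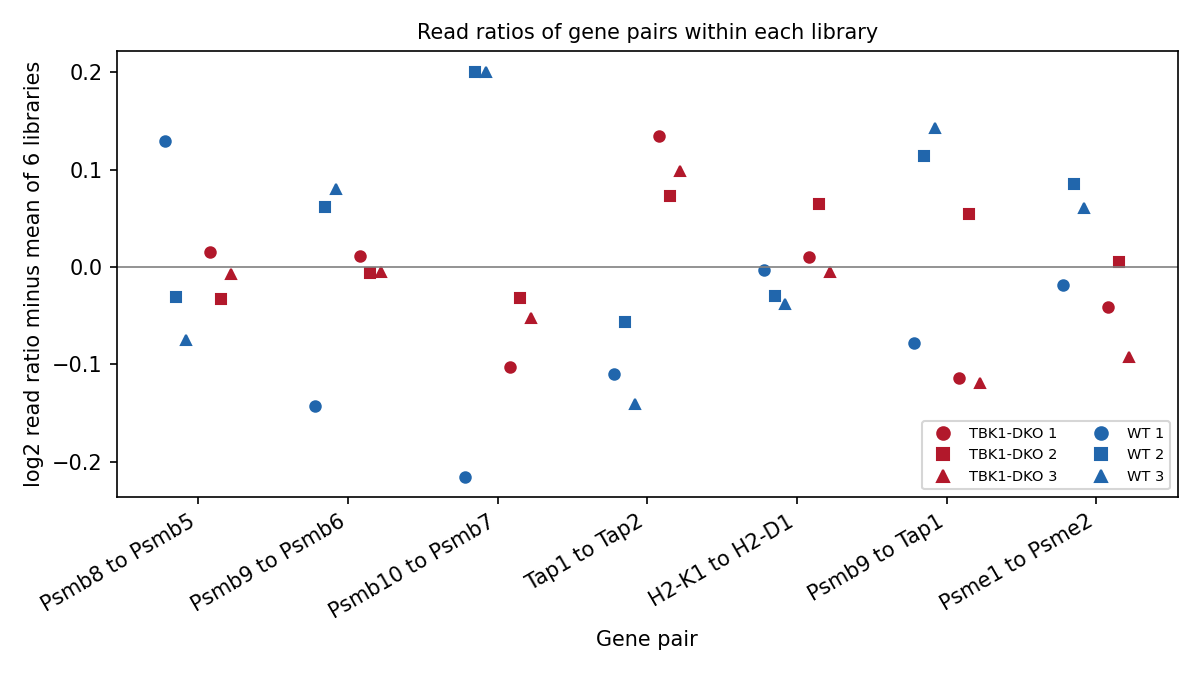
The log2 ratio of the reads of 2 genes in each library, minus its mean over the 6 libraries, for 7 gene pairs (red TBK1-DKO, blue WT, symbols for the replicate number). Only for Tap1 to Tap2 do all TBK1-DKO points lie above all WT points, and WT 1 stands apart from WT 2 and 3 for the pairs of proteasome subunits.

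Libraries of the same group differed from each other in these genes in a common way. In 9 of the 10 genes TBK1-DKO 2 was the highest library of its group and WT 1 the lowest of its own, which held for 24.2% of all genes tested. Nlrc5 was the exception on both counts, lowest in TBK1-DKO 2 and highest in WT 1 of their groups. The median of the 10 genes in TBK1-DKO 2 was 0.15 above the mean of TBK1-DKO 1 and 3 on the log2 scale, and in WT 1 it was 0.22 below the mean of WT 2 and 3. In these 9 genes both deviations move the fold change of TBK1-DKO over WT upwards, which the map of deviations shows gene by gene.

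**Figure D3:**
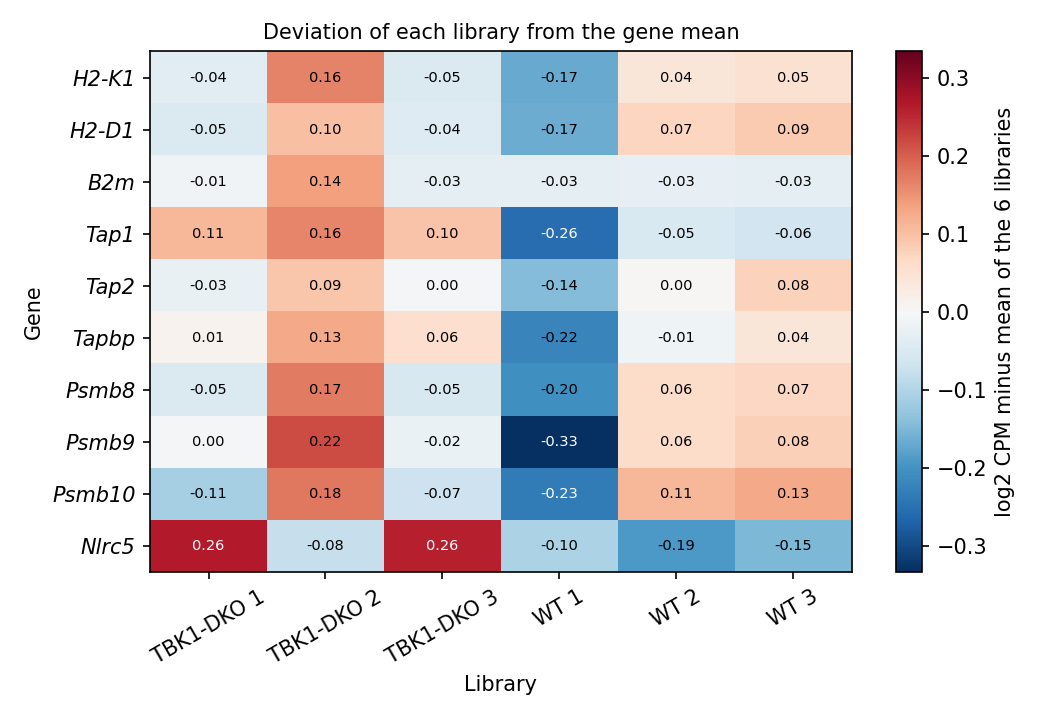
Log2 CPM of each of the 10 genes in each library minus the gene's mean over the 6 libraries, in colour and as a printed number. Outside the Nlrc5 row the column of TBK1-DKO 2 is positive and that of WT 1 negative throughout, while Nlrc5 is at 0.26 in TBK1-DKO 1 and 3 and below 0 elsewhere.

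The comparison was therefore repeated with TBK1-DKO 1 and 3 against WT 2 and 3. This kept the 2 closest libraries of each group, so its spread within groups is the smallest these data hold, and 24.2% of 14456 genes were then called higher and 23.5% lower. Tap1 and Nlrc5 were called higher, Nlrc5 at 0.42 on the log2 scale (SE 0.029). For Nlrc5, TBK1-DKO 2 was the lowest and WT 1 the highest of their groups, so their omission had to raise the fold change. H2-K1 (-0.10), H2-D1 (-0.14), Psmb8 (-0.13), Psmb9 (-0.10) and Psmb10 (-0.22) were called lower in TBK1-DKO (edgeR, adjusted p from 4.0e-08 to 0.0051). B2m, Tap2 (-0.067) and Tapbp (0.0072) were not called. TBK1-DKO 2 was highest and WT 1 lowest of their groups in these genes, so their omission had to lower the fold change. The p-values of this fit are therefore no evidence of lower expression in TBK1-DKO. Of the 5 genes called lower, 4 had a positive log2 fold change over all 6 libraries. Leaving out both TBK1-DKO 2 and WT 1 thus reversed the direction of H2-K1, H2-D1, Psmb8 and Psmb9. H2-D1, at 0.0019 in the main fit, was also negative with all 6 libraries under DESeq2 (-0.0053). With length and GC trends taken out, H2-K1, H2-D1 and Psmb8 were negative with all 6 libraries too. The fold changes under 3 fits are plotted together.

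**Figure D4:**
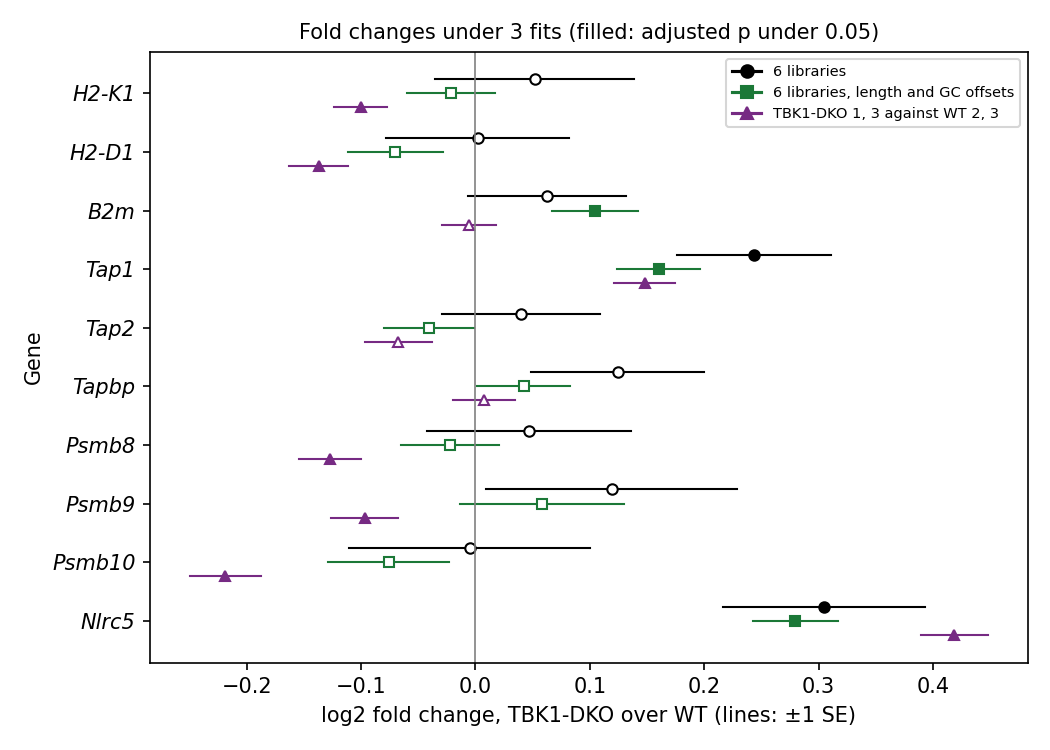
Log2 fold change of TBK1-DKO over WT for the 10 genes with lines of 1 SE, from all 6 libraries (black circles), from all 6 with length and GC trends taken out (green squares) and from TBK1-DKO 1 and 3 against WT 2 and 3 (purple triangles), filled where the adjusted p was under 0.05. Tap1 and Nlrc5 are filled and to the right of 0 in all 3 fits. H2-K1, H2-D1, Psmb8, Psmb9 and Psmb10 are filled, to the left of 0, in the last fit only. That fit rests on the closest libraries of each group.

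Levels between genes were compared per kilobase of the principal transcript in GENCODE. In WT the order was B2m at 2326 CPM per kilobase, H2-K1 at 1236, H2-D1 at 236, Psmb8 at 162, Tapbp at 133, Psmb9 at 120, Tap1 at 104, Psmb10 at 94.3, Tap2 at 59.2 and Nlrc5 at 22.4. The order of the means was the same in TBK1-DKO, where Tap1 was at 123 and Nlrc5 at 27.6 CPM per kilobase. In WT, neighbours from Psmb8 down to Psmb10 overlapped in their ranges over the libraries. B2m, H2-K1, H2-D1, Tap2 and Nlrc5 each stood clear of their neighbours. In TBK1-DKO only Tapbp with Psmb9, and Psmb9 with Tap1, overlapped. Within each single library of either group, the genes whose ranges overlapped stood in the order of the means.

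Sequence shared with other genes limits some of these levels. Of the 50-base words of the principal transcript, 8.79% for H2-K1 and 14.3% for H2-D1 also occur in transcripts of other genes, mainly other class I genes. The share was 12.5% for Psmb9 and 6.47% for Tap1, whose exons overlap by 212 bases on opposite strands. For Tapbp (21.0%), Tap2 (12.6%) and Psmb8 (5.83%) the main source was an overlapping opposite-strand transcript, Gm19412, Gm15821 and Gm20496, none of which is a row of the count files. No such word was found in B2m, Psmb10 or Nlrc5. Exons of Tapbp, taken over all its transcripts, also share 149 bases with Zbtb22 on the same strand. Zbtb22 is a row of the count files. Exons of Nlrc5, over all its transcripts, share 78 of 8493 bases with 9330175E14Rik on the opposite strand, also a row there. How the counting treated strand and reads shared between genes is not stated in the labels. The levels of the 7 genes with shared words, and of Nlrc5, are therefore uncertain to that extent.

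The genes most like Nlrc5 and Tap1 over the 6 libraries were found by the root mean square difference of centred log2 CPM. For Nlrc5 they were Bmp2k, Nav1, Tmem131, Rbl1 and Fanca, with differences of 0.019 to 0.036. For Tap1 they were Ppp1r16a, Pgpep1, Cln6, Lgals3bp and Dusp3, with differences of 0.014 to 0.023. Among the class I genes themselves, Tapbp was nearest to Tap1 at 0.066, and Tap1 was nearest to Nlrc5 at 0.16.

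Around the 10 genes, 6 lists of the pathway held 69 genes, of which 8 rose, 3 fell and 58 were not called, beside the 13.7% and 9.90% of all genes. The median log2 fold change of the 69 was 0.063, against 0.0015 over all genes tested. With length and GC trends taken out, 19 of the 69 were called higher and 7 lower, beside 17.3% and 19.2% of all genes.

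In the list of peptide loading and folding in the endoplasmic reticulum, 1 of 10 rose and none fell. The one that rose was Pdia4, a protein disulfide isomerase gene, at 275 ± 4.33 against 241 ± 9.08 CPM (SD, n = 3), a call lost without TBK1-DKO 1 or 3 or WT 2 or 3. Partners of class I folding were not called: Calr (calreticulin) had a log2 fold change of -0.0068, Canx (calnexin) -0.12, Pdia3 (ERp57, part of the loading complex) -0.12 and Erap1, which trims peptides in the endoplasmic reticulum, -0.056.

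None of the 14 shared or standard subunits of the proteasome core was called, with log2 fold changes from -0.022 to 0.16 and a median of 0.055. Their summed level was 1428 to 1679 CPM in TBK1-DKO and 1415 to 1472 CPM in WT. Of 9 activators and assembly factors, 1 rose and none fell. Psme3, which encodes the nuclear activator PA28 gamma, rose from 176 ± 1.94 to 205 ± 5.25 CPM (SD, n = 3; log2 fold change 0.22, SE 0.052; adjusted p = 0.012, edgeR), a call lost without TBK1-DKO 1 or 3 or WT 2 or 3. The interferon-inducible PA28 chains Psme1 (-0.021) and Psme2 (0.063) were not called, and the ratio of their reads was 1.27 ± 0.043 in TBK1-DKO and 1.35 ± 0.051 in WT (SD, n = 3; exact permutation p = 0.2).

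Among 17 regulators of class I transcription, 3 rose, 1 fell and 13 were not called. Those that rose were Nfkb1, at 421 ± 5.90 against 367 ± 10.9 CPM, Irf9, an interferon regulatory factor gene, at 146 ± 5.57 against 129 ± 2.28 CPM, and Atf1, at 73.6 ± 2.06 against 65.6 ± 0.367 CPM (SD, n = 3), by 0.17 to 0.19 on the log2 scale. The Atf1 call was lost with each library left out, and the Nfkb1 and Irf9 calls with 5 and 4 of the 6 libraries left out in turn. Irf8, a factor that type 1 conventional and plasmacytoid dendritic cells depend on, fell from 738 ± 43.5 to 591 ± 12.7 CPM (SD, n = 3; log2 fold change -0.32, SE 0.064; adjusted p = 0.0051, edgeR), and this call held with each library left out in turn. Irf1 (0.063), Rfx5 (-0.15) and Ciita, the class II counterpart of Nlrc5 (0.24), were not called; DESeq2, unlike edgeR, called Ciita.

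Of 7 cytosolic and vesicular peptidases, Lap3, a leucine aminopeptidase gene induced by interferon gamma, fell from 83.4 ± 2.16 to 70.3 ± 3.26 CPM (SD, n = 3; log2 fold change -0.25), a call lost without TBK1-DKO 3 (adjusted p = 0.058, edgeR), and the other 6 were not called. Of 12 cross-presentation genes, 3 rose, 1 fell and 8 were not called. Rab27a, a GTPase of vesicle recruitment to phagosomes, rose from 42.0 ± 1.52 to 53.6 ± 1.84 CPM (SD, n = 3; log2 fold change 0.35, SE 0.059). Sec61a1, a subunit of the translocon of the endoplasmic reticulum, rose by 0.26, and Cybb, the catalytic subunit of the phagocyte NADPH oxidase, by 0.23. Snap23, a membrane fusion gene, fell from 96.6 ± 5.57 to 80.6 ± 1.06 CPM. The calls of Rab27a, Sec61a1 and Snap23 held with each library left out in turn, and that of Cybb was lost without TBK1-DKO 1 or 3 or WT 2 or 3.

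Markers of cell types moved with the labels in the same libraries. Over all genes tested, 13.7% were called higher and 9.90% lower. Of the marker lists, all 10 tested neutrophil genes were called higher, summing to 5718 to 6596 CPM in TBK1-DKO and 2349 to 2625 CPM in WT, as were 4 of 4 tested erythroid genes (2317 to 2388 against 1264 to 1387 CPM; Hbb-b1 is listed at 0 in all 6 libraries), 6 of 6 plasma cell genes (1968 to 2163 against 1230 to 1381 CPM) and 7 of 8 proliferation genes (2083 to 2434 against 1316 to 1577 CPM). Called lower were 5 of 6 markers of type 1 conventional dendritic cells (299 to 307 against 426 to 445 CPM), 6 of 7 of plasmacytoid dendritic cells (714 to 748 against 963 to 980 CPM), 8 of 8 of macrophages (3693 to 4190 against 5182 to 5796 CPM), 7 of 8 of NK cells (197 to 214 against 272 to 299 CPM), 5 of 8 of T cells (428 to 445 against 502 to 507 CPM) and 3 of 7 of B cells (2635 to 2730 against 3108 to 3228 CPM). Of 7 markers of type 2 conventional dendritic cells 2 were called higher and 2 lower, and of the 6 pan dendritic markers Zbtb46 was called higher and Itgax lower. In bulk RNA, fewer cells of a type and less RNA per cell cannot be told apart. The part of these shifts in the levels of Tap1, Nlrc5 and the other class I genes was not tested.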

How the data were processed

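Per the labels' protocols, RNA was taken with Trizol from fresh splenic dendritic cells and made into libraries by Illumina protocols. The authors deposited unscaled read counts by gene symbol, 1 file a sample. The submitters' processing notes name TopHat, TopHat2, HTSeq, DESeq2 and the mm10 build; what each did, in which version and with which annotation or strand setting is not stated there. Summary rows that name no gene (8.20% to 10.7% of records) were left out of library sizes and tests.

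Counts were filtered with filterByExpr (minimum count 10), scaled by TMM factors (0.996 to 1.01) and tested with the quasi-likelihood F test of edgeR 4.0.16 in R 4.3.3, robust and without covariates, adjusted by Benjamini-Hochberg over all 14388 genes tested. CPM are scaled to 1000000 reads, and intervals are 95%. Groups and replicate numbers came from the sample titles. Gene pairs were tested by two-sided exact permutation over the 6 libraries. Positions and lengths came from GENCODE M21 (GRCm38, the assembly of mm10), which 21785 of 23420 symbols matched directly and 1299 by a synonym. The genes, pathway lists, marker lists and alternatives were chosen with earlier results of these data known. Text names all 10 genes, up to 4 called genes per pathway list and preset partners, and, for Nlrc5 and Tap1, the 5 genes of at least 10 CPM with the nearest profile. One preset partner is not reported here. The scripts were tested on simulated data. Alternatives were DESeq2 1.42.0, limma-voom (limma 3.58.1), RLE factors, other filters, a replicate block, thinned counts, length and GC offsets (values for 99.2% of genes), haemoglobin and immunoglobulin genes removed, a stricter threshold and libraries left out.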

Additional observations from a re-analysis of the deposited data

How the results depend on the processing

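Tap1 and Nlrc5 had positive log2 fold changes under all 17 alternatives and were called in 12 of them; the 5 that lost both calls each left out 1 library. The number of class I genes called higher was 0 to 2 with each library left out in turn, beside 9.1% to 15.7% of all genes. It was 0 at an adjusted p under 0.01. In TBK1-DKO 1 and 3 against WT 2 and 3, 5 were called lower, beside 23.5% of all genes. Of the 69 pathway genes, 8 rose and 3 fell. Those called higher numbered 4 without a filter, beside 10.2% of all genes, and 19 with length and GC offsets, beside 17.3%. In TBK1-DKO 1 and 3 against WT 2 and 3 they numbered 19, beside 24.2%. With each library left out they numbered 2 to 14, beside 9.1% to 15.7%. At the stricter threshold they numbered 2, where 1996 of 14388 genes were called in either direction. Those called lower numbered 7 with the offsets and 21 in the 4 libraries, beside 19.2% and 23.5% of all genes. With each library left out they numbered 2 to 7, beside 6.62% to 14.4%. The replicate numbers are shared by the groups. The correlations of deviations of same-numbered libraries were 0.18, 0.15 and -0.065, beside -0.22 to 0.12 for unlike numbers. Libraries 1 and 2 of each group correlated best with their own number, and libraries 3 did not. The numbers were therefore not taken to pair samples. With the replicate number as a block, 2 class I genes were called higher, the same 2. Of the 69 pathway genes, 10 were then called higher and 5 lower, beside 16.1% and 12.3% of all genes. With the block and the offsets together, 21 pathway genes were called higher and 8 lower, beside 18.0% of all genes called higher and 19.9% lower.

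Values of uncalled genes changed sign. With the offsets, H2-K1 was -0.021, H2-D1 -0.070, Tap2 -0.040 and Psmb8 -0.022, and with the block as well -0.021, -0.069, -0.040 and -0.021. In TBK1-DKO 1 and 3 against WT 2 and 3, H2-K1 was -0.10, H2-D1 -0.14, B2m -0.0056, Tap2 -0.067, Psmb8 -0.13 and Psmb9 -0.097. H2-D1 was -0.0053 with DESeq2, -0.0052 with RLE factors, -0.011 without a filter, -0.0040 with a minimum count of 50 and -0.016 with thinned counts. With each library left out, H2-K1 ran from -0.043 to 0.089, H2-D1 from -0.076 to 0.032, B2m from -0.014 to 0.094, Tap2 from -0.020 to 0.075, Psmb8 from -0.054 to 0.086, Psmb9 from -0.0039 to 0.17 and Psmb10 from -0.12 to 0.051. The pair Psmb8 to Psmb5 ran from -0.057 to 0.045 with each library left out and was 0.057 in the 4 libraries, and Psmb9 to Psmb6 ran from -0.071 to 0.041 and was -0.068. The cause was not tested. The other 5 pairs kept their direction with each library left out and in the 4 libraries.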

Other observations

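Lnpep, the gene of an aminopeptidase of cross-presenting endosomes and a member of the peptidase list, had TBK1-DKO values of 209, 78.3 and 204 CPM and WT values of 206, 188 and 184 CPM, and was named after its values were seen. Its principal transcript has 12052 bases. The low value was in the library whose deviations fell with transcript length, and the part of that trend was not tested for this gene.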
